A study of Homo sapiens with 26 samples.

Results

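Genes that the transcription factor p53 is known to switch on were followed in NCCIT cells, a human embryonal carcinoma line, after siRNA against DNA methyltransferases. The set was a list of 10 gene symbols chosen by what the genes are known for, with no threshold on their measured values: CDKN1A, MDM2, GDF15, BBC3, FAS, TP53INP1, BTG2, ZMAT3, RRM2B and GADD45A. Earlier results of these data were known when the list was chosen. A gene was measured where at least 1 row of the array table carried its symbol and no other symbol, and 9 of the 10 were measured among 18417 genes in all. BTG2 was not analysed here. The question was whether losing methyltransferases evokes the transcripts of a DNA damage response.

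The data were 26 Affymetrix Human Gene 1.0 ST arrays, 2 for each of 13 groups. All groups were NCCIT cells transfected with siRNA, and none was left untransfected. The control groups, siNTC-1 and siNTC-2, received control siRNA. Single depletions received siRNA against DNMT1 (siDNMT1), DNMT3A (siDNMT3A), DNMT3B (siDNMT3B) or DNMT3L (siDNMT3L). Combined depletions received siRNA against DNMT1 with DNMT3A (siD1+3A), with DNMT3B (siD1+3B) or with both (siD1+3A+3B), or against pairs of DNMT3A, DNMT3B and DNMT3L (the groups 3A+3B, 3A+3L and 3B+3L) or all of these (3A+3B+3L). The labels give no dose of siRNA and no time after transfection. DNMT1 copies methylation onto new DNA strands, DNMT3A and DNMT3B place new methylation, and DNMT3L is their helper without catalytic activity.

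p53 is held at a low level by MDM2, a ubiquitin ligase that p53 itself induces. When DNA is damaged or the cell is stressed, p53 escapes MDM2 and binds a pair of short half-sites near its target genes. Its targets stop the cell cycle (CDKN1A, GADD45A), limit p53 (MDM2), favour cell death (BBC3, FAS, TP53INP1), supply nucleotides for repair (RRM2B) or bind RNA (ZMAT3). Several of them answer to other pathways too. GDF15, a secreted stress cytokine, is also induced by the integrated stress response, in which the factors ATF4 and CHOP act on amino acid shortage or unfolded proteins. NCCIT cells have been reported to carry a mutated p53 gene, which limits them as a model of the p53 response.

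Each targeted transcript was lower in every group that received its siRNA than in the mean of the control groups, at 39.3% to 56.7% of control for DNMT1, 62.3% to 73.0% for DNMT3A, 56.0% to 89.3% for DNMT3B and 68.7% to 80.1% for DNMT3L. Against the control group of the same set of arrays, siNTC-1 for 3 depletions and siNTC-2 for 8, the ranges were 37.4% to 59.5%, 66.99% to 78.5%, 50.3% to 99.4% and 68.3% to 79.7%, and 19 of the 20 were called lower. The other was DNMT3B in 3A+3B+3L, at 99.4% (adjusted p = 0.951). DNMT3L was also called lower than both controls in siDNMT1 (75.2%, adjusted p = 0.00407) and siDNMT3B (80.06%, adjusted p = 0.0182), which did not receive its siRNA, and than siNTC-1 in siDNMT1 (adjusted p = 0.0203) but not siDNMT3B (adjusted p = 0.0586). Of 8 pluripotency markers 5 were measured, and all 5 lay above the dimmest 40% of genes, as did 1 of 9 measured markers of differentiated derivatives and 1 of 3 fibroblast markers. Duplicates correlated at 0.997 to 0.999 over genes. Whether duplicates were separate cultures is not stated by the labels, so the p-values measure the spread between these arrays, which may be technical. Along the leading principal component the arrays formed 2 sets. One set of 8 arrays held siNTC-1, siDNMT1, siDNMT3B and siDNMT3L, and the other set of 18 arrays held siNTC-2 and the remaining 8 depletions. No label names a batch, and whatever separates the sets cannot be told apart from what the groups received. For this reason every depletion is given against the mean of both control groups, and beside it against the control group of its own set, called the nearer control. In bulk RNA, fewer cells of a type and less RNA per cell cannot be told apart.

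The promoters of GDF15 and CDKN1A, the members with the largest spread between groups and with the best known arrest function, are shown because methylation of CpG pairs is what the depleted enzymes make. The sequences are the 250 bases before the RefSeq transcription start on GRCh38.p14, both on the plus strand, with CpG pairs in capitals. The GDF15 stretch is chr19:18385908-18386157 and the CDKN1A stretch is chr6:36678464-36678713.

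GDF15: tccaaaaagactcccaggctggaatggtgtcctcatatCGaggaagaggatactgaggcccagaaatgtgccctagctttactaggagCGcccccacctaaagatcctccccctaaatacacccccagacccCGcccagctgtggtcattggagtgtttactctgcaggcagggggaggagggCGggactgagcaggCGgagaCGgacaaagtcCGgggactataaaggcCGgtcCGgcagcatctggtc

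CDKN1A: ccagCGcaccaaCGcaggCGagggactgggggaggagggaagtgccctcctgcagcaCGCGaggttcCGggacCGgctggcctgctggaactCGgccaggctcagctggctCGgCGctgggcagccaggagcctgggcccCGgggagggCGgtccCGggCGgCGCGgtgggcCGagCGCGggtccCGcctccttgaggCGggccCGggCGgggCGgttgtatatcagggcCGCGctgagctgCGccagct

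The GDF15 stretch held 9 CpG pairs with 58.4% G or C, near the median of 11 CpG pairs over 35116 promoters of this length. The CDKN1A stretch held 27 CpG pairs with 76.4% G or C, more than 82.3% of promoters had. Neither stretch held the letters TGATGNAA, the core of the element that ATF4 and CHOP bind, which 3.14% of all promoters held. Neither held a p53 half-site, which 5.57% of all promoters held. Both strands were searched, and matches of the motifs could overlap. No match says only that these letters are not in this window, and the arrays measured RNA, not methylation.

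The arrest genes come first. CDKN1A encodes p21, the inhibitor of cyclin-dependent kinases that carries out most of the p53 arrest. Its log2 values were 5.74 and 5.63 in siNTC-1, 5.96 and 6.40 in siDNMT1, 6.21 and 6.17 in siDNMT3B, and 5.86 and 5.92 in siDNMT3L. They were 6.39 and 6.37 in siNTC-2, 5.81 and 6.06 in siDNMT3A, 6.07 and 5.92 in siD1+3A, 6.08 and 6.06 in siD1+3B, and 6.08 and 6.26 in siD1+3A+3B. The combinations without DNMT1 siRNA had 6.14 and 6.01 in 3A+3B, 5.84 and 5.996 in 3A+3L, 6.24 and 6.29 in 3B+3L, and 5.81 and 5.88 in 3A+3B+3L. The control groups were the extremes of this gene, siNTC-1 lowest and siNTC-2 highest, with every depletion's mean between them. The 2 siDNMT1 arrays stood far apart. Between neighbours in the order of the 13 group means, only 1 of 12 gaps exceeded the pooled SD between duplicates of 0.12. GADD45A, a stress sensor that slows entry into mitosis, ran from 7.34 to 7.74 over all arrays, and the control arrays spanned that range, with 7.34 and 7.70 in siNTC-1 and 7.68 and 7.74 in siNTC-2. None of its 12 neighbouring gaps exceeded the pooled SD of 0.09.

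MDM2, the inhibitor of p53, was bright on the array in every group. It read 10.61 and 10.66 in siNTC-1 and 10.91 and 10.88 in siNTC-2, its highest group. Its lowest group was siD1+3A+3B at 10.50 and 10.42, and siDNMT1 was next at 10.53 and 10.50. The whole range of its group means, 0.43, was close to the 0.41 that the median gene showed.

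Of the cell death genes, BBC3 and FAS had ranges of group means at the 51.6 and 34.8 percentile of all genes. BBC3 encodes PUMA, a BH3-only activator of apoptosis, and its array values ran from 6.18 in siDNMT3A to 6.67 in siDNMT3B, with siNTC-1 at 6.63 and 6.42 inside that range. FAS, the death receptor, was the only measured member among the dimmest 40% of genes, with values from 4.30 to 4.73. Background signal compresses differences at that brightness.

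TP53INP1, which joins p53 to cell death and autophagy, separated depletions from both controls. It read 6.54 and 6.65 in siNTC-1 and 6.65 and 6.61 in siNTC-2. Among the groups with DNMT3A siRNA it read 7.33 and 7.33 in siDNMT3A, 7.04 and 7.08 in siD1+3A, 6.88 and 6.95 in siD1+3A+3B, 7.05 and 7.15 in 3A+3B, 7.08 and 7.12 in 3A+3L, and 6.82 and 7.07 in 3A+3B+3L. Every one of those arrays was above all control arrays. Without DNMT3A siRNA it read 6.44 and 6.48 in siDNMT1, 6.14 and 6.27 in siDNMT3B, 6.47 and 6.52 in siDNMT3L, 6.76 and 6.66 in siD1+3B, and 6.95 and 6.86 in 3B+3L. The siDNMT1, siDNMT3B and siDNMT3L arrays were below all 4 control arrays, and the siD1+3B and 3B+3L arrays were above them. The 6 groups with the highest means were the 6 that received DNMT3A siRNA, but the order is not a clean split. The lowest of them, siD1+3A+3B at 6.911, was level with 3B+3L at 6.908, within the pooled SD of 0.07, and their arrays overlapped. All 6 groups with DNMT3A siRNA are in the siNTC-2 set, so presence of DNMT3A siRNA and the set overlap.

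RRM2B, the p53-inducible subunit of ribonucleotide reductase, followed the sets. It lay between 7.41 and 7.84 on the 8 arrays of the siNTC-1 set and between 8.08 and 8.50 on the 18 arrays of the siNTC-2 set, with no overlap. ZMAT3, an RNA-binding zinc finger protein, had its lowest group mean in siNTC-2, at 9.61 and 9.65, and its highest in siDNMT1, at 10.02 and 10.03. The 3B+3L arrays were nearly as high, at 10.01 and 9.94, and siNTC-1 read 9.83 and 9.84.

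GDF15 moved most. It read 5.64 and 5.90 in siNTC-1, 5.74 and 5.98 in siDNMT1, 5.88 and 5.94 in siDNMT3B, and 5.56 and 5.47 in siDNMT3L, all low. It read 7.94 and 7.78 in siNTC-2, 6.98 and 7.01 in siDNMT3A, 6.95 and 7.01 in 3A+3B, and 8.28 and 8.29 in 3B+3L, all high. The other 5 groups of the siNTC-2 set were low again, at 6.34 and 6.17 in siD1+3A+3B, 6.20 and 6.07 in siD1+3A, 5.97 and 6.08 in siD1+3B, 5.76 and 5.63 in 3A+3L, and 6.03 and 5.75 in 3A+3B+3L. No array of the 4 high groups overlapped any array of the 9 others. The range of its group means was 2.77, larger than that of 99.95% of genes, against 1.12 for TP53INP1 (96.5th percentile), 0.93 for RRM2B (92.7th) and 0.70 for CDKN1A (82.8th). The ranges of MDM2, ZMAT3, BBC3, FAS and GADD45A lay between the 34.2 and the 54.6 percentile.

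**Figure D1:**
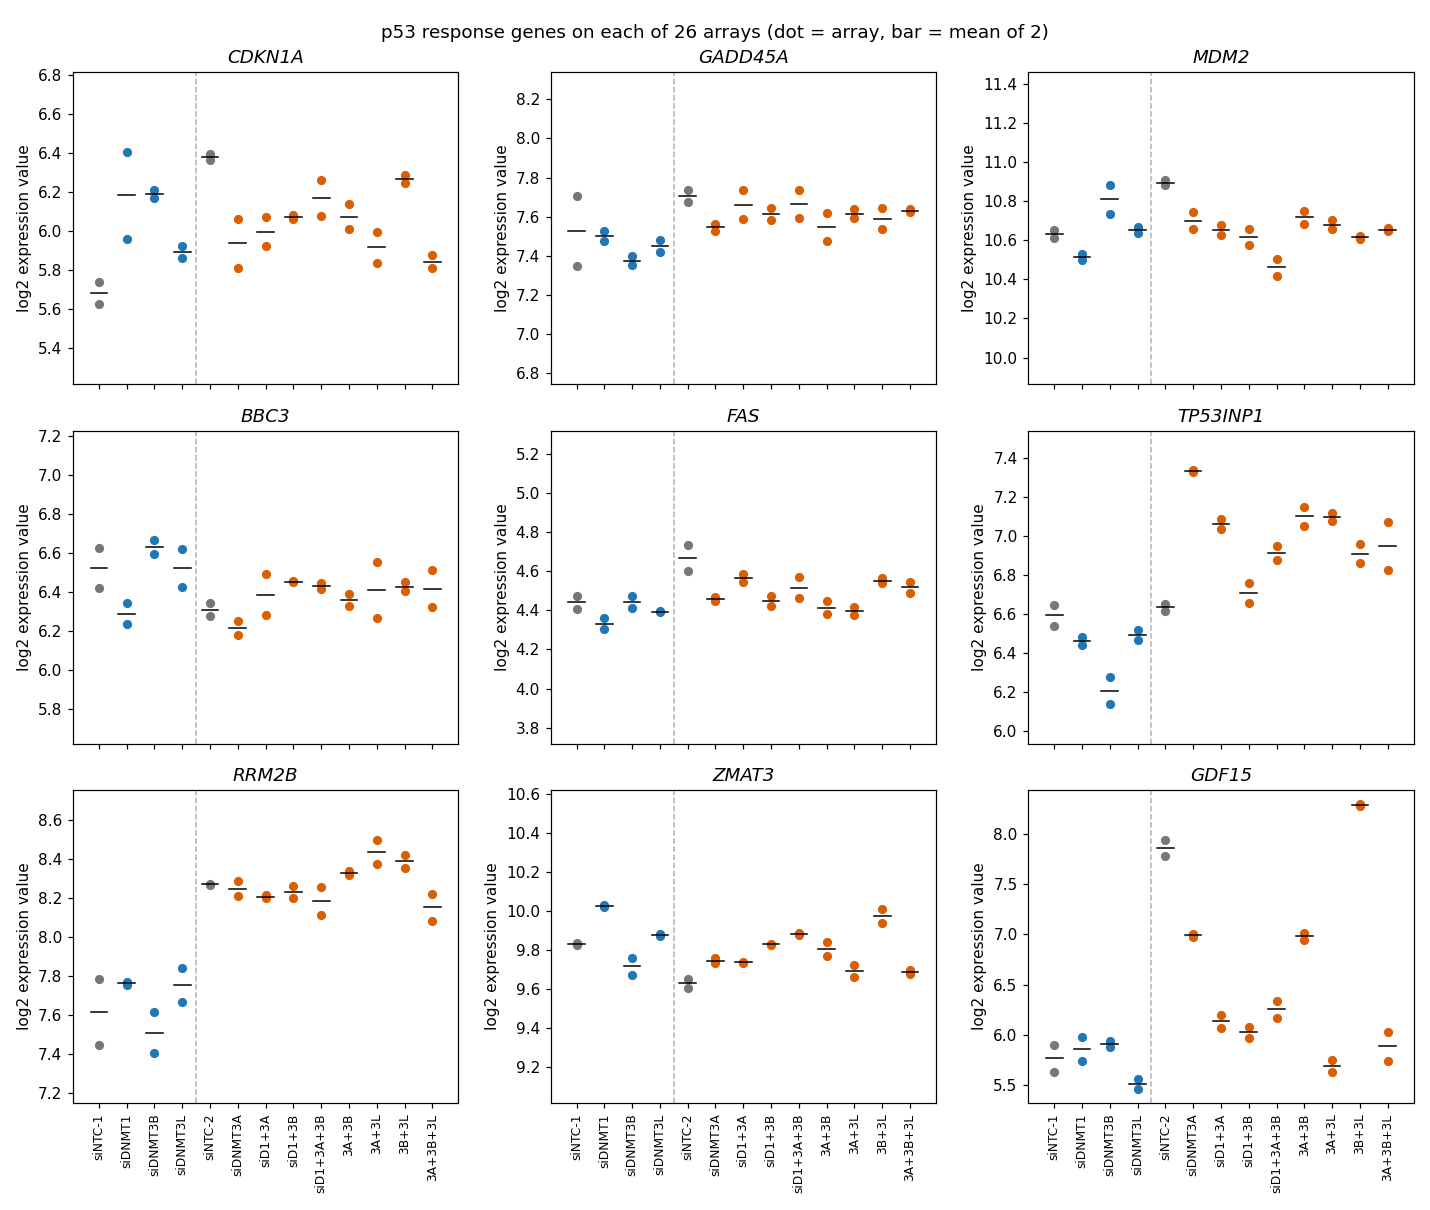
Log2 expression value (vertical axis, a span of at least 1.6 in each panel) of the 9 measured genes on each of the 26 arrays, by siRNA group (horizontal axis). Dots are arrays, bars are means of 2, grey marks control siRNA, blue and orange mark depletions of the siNTC-1 and siNTC-2 sets, and the dashed line separates the sets. RRM2B steps between the sets, TP53INP1 is highest in siDNMT3A, and GDF15 is high in siNTC-2, siDNMT3A, 3A+3B and 3B+3L.

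The control groups differed from each other in 6 of the 9 measured genes, 5 higher and 1 lower in siNTC-2 than in siNTC-1. Over all genes 44.7% were called, which means an adjusted p under 0.05 in the limma test, with 24.2% higher and 20.5% lower. GDF15 was 4.26-fold higher in siNTC-2 (log2 difference 2.09 ± 0.10 SE, adjusted p = 3.4e-11). CDKN1A was 1.62-fold higher (0.70 ± 0.11, adjusted p = 4.8e-05) and RRM2B 1.57-fold higher (0.65 ± 0.09, adjusted p = 1.6e-05). Smaller rises were 0.26 ± 0.05 for MDM2 and 0.23 ± 0.05 for FAS, and ZMAT3 was lower, at -0.20 ± 0.05 (adjusted p = 0.000761, 0.00207 and 0.00138). All 6 calls held when any of the 4 control arrays was left out. TP53INP1 differed by 0.04 (adjusted p = 0.676), BBC3 by -0.21 (adjusted p = 0.0819) and GADD45A by 0.18 (adjusted p = 0.105). Without replicate 2 of siNTC-1, BBC3 at -0.31 and GADD45A at 0.36 passed the test too (adjusted p = 0.0342 and 0.00164).

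Against the mean of both control groups, 38 of 99 tests of a member in a depletion were called, 19 higher and 19 lower. That is 38.4%, where 29.1% of the tests of all genes were called, 15.0% higher and 14.1% lower. TP53INP1 and RRM2B gave 14 of the 19 rises, and GDF15 gave 8 of the 19 falls. CDKN1A and BBC3 were called in none of the 11 depletions, with CDKN1A differences from -0.19 to 0.24 and BBC3 differences from -0.20 to 0.21. At an unadjusted p under 0.05 limma gave 1 test of CDKN1A and 2 of BBC3. Leaving out 1 array added calls for CDKN1A in siDNMT1 without its replicate 1 (0.37) and for BBC3 in siDNMT3A without replicate 2 of siNTC-1 (-0.25) and in siDNMT3B without replicate 1 of siNTC-1 (0.27).

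By depletion, the called members numbered 4 of 9 in siDNMT1 (30.7% of all genes called), 2 in siDNMT3A (29.5%), 4 in siDNMT3B (35.6%), 3 in siDNMT3L (33.2%), 5 in siD1+3A+3B (24.4%), 3 in siD1+3B (27.6%) and 3 in siD1+3A (27.4%). They numbered 3 in 3A+3B (26.7%), 4 in 3A+3L (27.4%), 5 in 3B+3L (32.8%) and 2 in 3A+3B+3L (25.1%). No depletion raised more than 4 of the 9 genes. The 4 raised in 3B+3L were GDF15, RRM2B, TP53INP1 and ZMAT3, and MDM2 fell there.

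TP53INP1 rose in 7 depletions against both controls, most in siDNMT3A, where it was 1.64-fold higher (0.72 ± 0.06, adjusted p = 2.7e-07). The rise was 1.40-fold in 3A+3B, 1.40-fold in 3A+3L, 1.36-fold in siD1+3A, 1.26-fold in 3A+3B+3L, and 1.23-fold in both siD1+3A+3B and 3B+3L. It fell to 75.4% of control in siDNMT3B (-0.41 ± 0.06, adjusted p = 5.6e-05). All 8 calls held with any 1 array left out. Its differences were 0.09 in siD1+3B, -0.12 in siDNMT3L and -0.15 in siDNMT1, which were not called.

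GDF15 fell in 8 depletions against both controls, to between 40.6% of control in siDNMT3L and 67.9% in siD1+3A+3B, and rose 2.77-fold in 3B+3L (1.47 ± 0.09, adjusted p = 3.3e-09). Those 9 calls held with any 1 array left out. Since the controls themselves differed 4.26-fold in this gene, their mean is a level at which no control array lay. RRM2B rose in 7 depletions, by 1.18-fold to 1.41-fold, and fell to 74.2% in siDNMT3B, and every rise was in the siNTC-2 set. Its calls in siDNMT3A and in the 3 depletions with DNMT1 siRNA were lost without at least 1 array: 0.27 without replicate 1 of siDNMT3A, 0.18 without replicate 1 of siNTC-1 in siD1+3A, 0.26 without replicate 2 of siD1+3B, and 0.16 without replicate 1 of siNTC-1 in siD1+3A+3B. Leaving out either duplicate of siD1+3A, siD1+3B or siD1+3A+3B, or either siNTC-2 array for siD1+3A+3B, also ended the RRM2B call there, at 0.17 to 0.32.

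MDM2 fell in 4 depletions against both controls, to 84.0% of control in siDNMT1 and 81.1% in siD1+3A+3B, where the calls held without any 1 array. Its differences of -0.15 in siD1+3B and in 3B+3L did not hold: the adjusted p was 0.0641 and 0.0501 without replicate 1 of siNTC-2, 0.0639 in siD1+3B without replicate 2 of siNTC-1, 0.275 in siD1+3B without its replicate 2, and 0.089 and 0.12 in 3B+3L without its replicate 1 and 2. ZMAT3 rose 1.23-fold in siDNMT1 (0.29 ± 0.04) and 1.18-fold in 3B+3L, and these calls held. Its rises of 0.15 in siDNMT3L and in siD1+3A+3B were lost without replicate 1 of siDNMT3L (0.14) or without either siD1+3A+3B array (0.14 and 0.16). FAS fell to 85.7% in siDNMT1, which held, and to 89.4% in siDNMT3L, 90.7% in 3A+3B and 89.8% in 3A+3L, which did not hold without either array of the depletion, or, for the last 2, without replicate 2 of siNTC-2 (-0.11 and -0.12). The FAS call in 3A+3B was also lost without replicate 2 of siNTC-1 (-0.12). GADD45A was called once, at -0.24 in siDNMT3B, and lost without replicate 2 of siNTC-1 (-0.15) or either siDNMT3B array (-0.22 and -0.27). Of the 38 calls, 26 held with any 1 array left out and 12 did not.

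Against the nearer control, 40 of 99 tests were called, 16 higher and 24 lower, or 40.4%, where 19.4% of the tests of all genes were called, 9.37% higher and 10.1% lower. The 8 depletions of the siNTC-2 set share the same 2 control arrays, and the other 3 share the siNTC-1 arrays, so a deviation of a control array enters every comparison of its set. With both readings of control, 22 tests were called in the same direction and 0 in opposite directions, 16 were called only against both controls and 18 only against the nearer one. Of the 40 calls, 24 held with any 1 array left out.

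The called members numbered 2 of 9 in siDNMT1 (19.8% of all genes), 3 in siDNMT3B (24.2%), 5 in siDNMT3A (15.8%), 4 in siD1+3A (22.8%), 4 in siD1+3B (25.0%), 4 in siD1+3A+3B (18.6%), 5 in 3A+3B (12.6%), 5 in 3A+3L (22.4%), 4 in 3B+3L (10.1%) and 4 in 3A+3B+3L (23.3%). In siDNMT3L no member was called by limma (19.2% of all genes), and 1 member, GDF15 at -0.26, had an unadjusted p under 0.05 (0.024). GDF15 was called there without replicate 1 of siNTC-1 (-0.39), as was GADD45A (-0.26), and RRM2B was called without replicate 2 of siNTC-1 (0.31).

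TP53INP1, whose level hardly differed between the controls, kept its 7 rises and its 1 fall in the same depletions against the nearer control. It was 1.62-fold higher in siDNMT3A (0.70 ± 0.07, adjusted p = 4.6e-06), 1.38-fold higher in 3A+3B and in 3A+3L, and 1.34-fold higher in siD1+3A. In siDNMT3B it was at 76.5% of siNTC-1 (-0.39 ± 0.07, adjusted p = 0.000725). Those 5 calls held with any 1 array left out. The rise of 0.31 in 3A+3B+3L fell to 0.19 without its replicate 2 and was then not called. The rise of 0.28 in siD1+3A+3B was not called without its replicate 2 (0.24) or replicate 2 of siNTC-2 (0.26), and that of 0.28 in 3B+3L without its replicate 1 (0.23) or either siNTC-2 array (0.29 and 0.26).

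GDF15 was below siNTC-2 in 7 of the 8 depletions of its set, and these 7 calls held with any 1 array left out. It was at 22.3% of siNTC-2 in 3A+3L (-2.16 ± 0.10), 25.5% in 3A+3B+3L, 28.0% in siD1+3B, 30.3% in siD1+3A and 32.9% in siD1+3A+3B, and at 54.8% in siDNMT3A and 54.4% in 3A+3B. In 3B+3L it was 1.34-fold higher (0.42 ± 0.10, adjusted p = 0.0136), a call lost without either 3B+3L array (0.43 and 0.42) or replicate 2 of siNTC-2 (0.34). Against siNTC-1 its differences were 0.09 in siDNMT1 and 0.14 in siDNMT3B, and neither was called.

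CDKN1A, called nowhere against both controls, was called in 6 depletions against the nearer one. It was 1.42-fold higher than siNTC-1 in siDNMT3B (0.51 ± 0.11, adjusted p = 0.00249), with both arrays above both siNTC-1 arrays, and at 69.0% of siNTC-2 in 3A+3B+3L (-0.54 ± 0.11, adjusted p = 0.00152), and these calls held. Its rise of 0.50 in siDNMT1 was 0.28 without replicate 2 of siDNMT1 and was then not called. Its falls were lost in siDNMT3A (-0.44) without its replicate 1 (-0.32) or replicate 1 of siNTC-2 (-0.43), in siD1+3A (-0.38) without its replicate 2 (-0.31) or either siNTC-2 array (-0.37 and -0.40), and in 3A+3L (-0.46) without its replicate 1 (-0.38). The siNTC-1 arrays were the lowest and the siNTC-2 arrays among the highest for this gene, so the direction of its calls divides exactly by control group.

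MDM2 was below siNTC-2 in all 8 depletions that share those arrays, from -0.18 in 3A+3B to -0.43 in siD1+3A+3B, where it was at 74.0%. The calls held with any 1 array left out in siD1+3A, siD1+3B, siD1+3A+3B, 3B+3L and 3A+3B+3L. Without replicate 1 of siNTC-2 they were lost in siDNMT3A (-0.18), 3A+3B (-0.16) and 3A+3L (-0.20), and without replicate 2 of siNTC-2 in siDNMT3A (-0.21) and 3A+3B (-0.19). Leaving out replicate 1 of siDNMT3A (-0.15), either 3A+3B array (-0.21 and -0.14) or replicate 2 of 3A+3L (-0.19) ended the call of that depletion. MDM2 was above siNTC-1 in siDNMT3B by 0.18, a call lost without replicate 1 of siNTC-1 (0.15) or replicate 2 of siDNMT3B (0.10).

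ZMAT3 was above the nearer control in 5 depletions, by 1.14-fold in siDNMT1, 1.15-fold in siD1+3B, 1.19-fold in siD1+3A+3B, 1.13-fold in 3A+3B and 1.27-fold in 3B+3L. The call in 3A+3B was lost without its replicate 2 (0.14) or replicate 1 of siNTC-2 (0.16), and the other 4 held. FAS was below siNTC-2 in 4 depletions, at 83.0% in 3A+3L, which held. Its calls at 86.5% in siDNMT3A, 85.9% in siD1+3B and 83.9% in 3A+3B were lost without replicate 2 of siNTC-2 (-0.15, -0.16 and -0.19) or without 1 array of the depletion (-0.20, -0.20 and -0.22). RRM2B, called in 8 depletions against both controls, was called in none against the nearer control, with differences from -0.12 to 0.17, and neither were BBC3 (-0.23 to 0.14) and GADD45A (-0.16 to -0.03). At an unadjusted p under 0.05 the counts were 0 for RRM2B, 1 for BBC3 and 0 for GADD45A. Against a single siNTC-1 array, RRM2B was called in siDNMT1 without replicate 2 of siNTC-1 (0.32) and in siDNMT3B without replicate 1 of siNTC-1 (-0.27), as was GADD45A in siDNMT3B (-0.33).

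**Figure D2:**
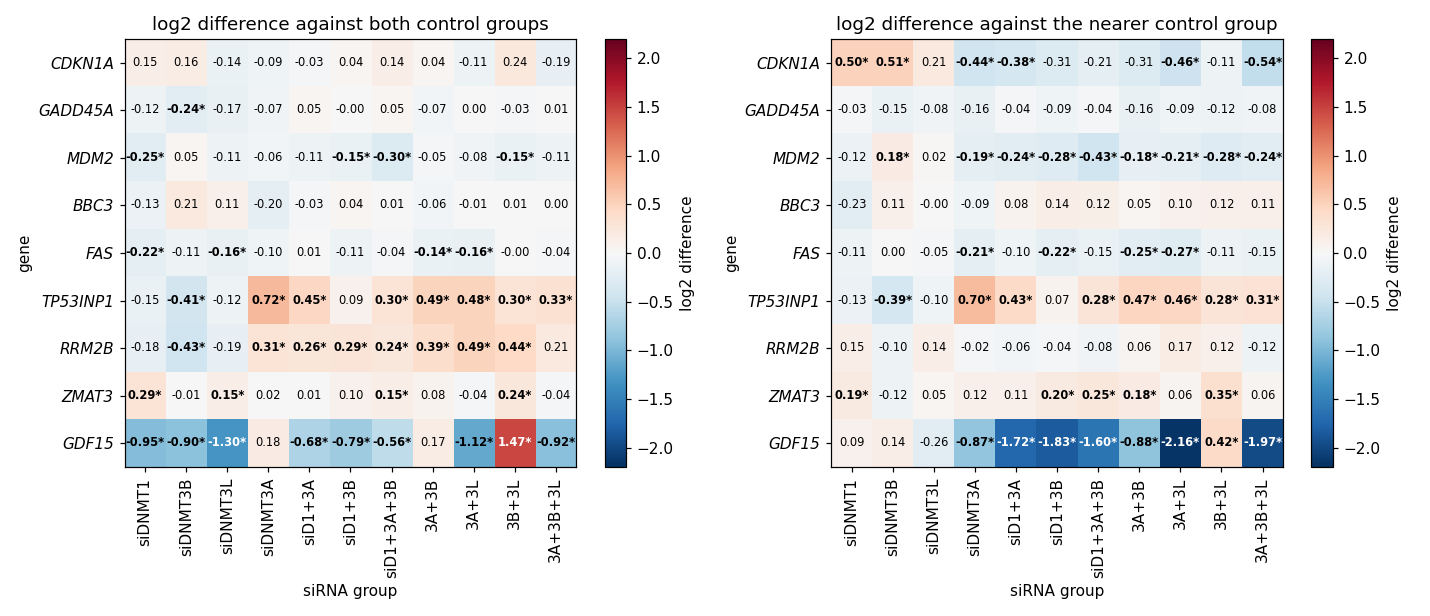
Log2 difference of each measured gene (rows) in each of the 11 depletions (columns) from the mean of both control groups (left) and from the control group of the same set of arrays (right). Colour gives the difference, and bold values with an asterisk passed an adjusted p of 0.05 in the limma test. TP53INP1 has the same calls in both panels, RRM2B has 8 calls on the left and none on the right, and GDF15 changes most between the panels.

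Comparisons between depletions of one set use no control array. Over 12 such comparisons, 19 of 108 tests were called, 4 higher and 15 lower, or 17.6%, where 8.06% of the tests of all genes were called, 3.63% higher and 4.43% lower. GDF15 gave 7 of the 15 falls. The share of all genes called was 18.3% for siDNMT3B against siDNMT1, 12.6% for siDNMT3L against siDNMT1, 10.8% for siDNMT3L against siDNMT3B, 9.62% for siD1+3A against siDNMT3A, 3.19% for siD1+3A+3B against 3A+3B, 10.1% for 3A+3L against siDNMT3A, 9.42% for 3A+3B+3L against 3A+3B and 18.9% for 3A+3B+3L against 3B+3L. It was 3.02% for siD1+3A+3B against siD1+3B, 0.0923% for 3A+3B against siDNMT3A, 0.570% for siD1+3A+3B against siD1+3A and 0.0977% for 3A+3B+3L against 3A+3L, and no member was called by limma in these last 4, in which 8 tests of members had an unadjusted p under 0.05. The 3 smallest of these 4 shares belong to the comparisons that add DNMT3B siRNA to another depletion of the siNTC-2 set. In them the DNMT3B transcript was at 67.1% of siDNMT3A in 3A+3B and 75.4% of siD1+3A in siD1+3A+3B. It was at 81.9% of 3A+3L in 3A+3B+3L, which was not called (adjusted p = 0.106).

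Adding DNMT1 siRNA went with lower GDF15, at 55.3% of siDNMT3A in siD1+3A (-0.85 ± 0.10, adjusted p = 5.7e-05) and 60.5% of 3A+3B in siD1+3A+3B (-0.73 ± 0.10, adjusted p = 0.000611). Adding DNMT3L siRNA did so too, at 40.7% of siDNMT3A in 3A+3L (-1.30 ± 0.10, adjusted p = 3e-07) and 46.9% of 3A+3B in 3A+3B+3L (-1.09 ± 0.10, adjusted p = 1.7e-06). With DNMT3A siRNA added to 3B+3L, GDF15 was at 19.0% (-2.39 ± 0.10, adjusted p = 2.3e-11). These 5 calls held with any 1 array left out. The DNMT3B transcript was higher in 3A+3B+3L than in 3B+3L (0.45, adjusted p = 4.3e-05) or 3A+3B (0.44, adjusted p = 0.000152). It was also higher in siD1+3A+3B than in 3A+3B (0.25, adjusted p = 0.0379). Those comparisons thus differ in DNMT3B level as well as in the added siRNA. The DNMT1 transcript was also 0.19 higher in 3A+3B+3L than in 3B+3L (adjusted p = 0.0208). In the siNTC-1 set, GDF15 in siDNMT3L differed by -0.35 from siDNMT1 and by -0.40 from siDNMT3B. The first was lost without replicate 2 of siDNMT1 (-0.23) or either siDNMT3L array (-0.39 and -0.30), and the second without either siDNMT3B array (-0.43 and -0.37) or replicate 2 of siDNMT3L (-0.36).

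TP53INP1 was lower when DNMT1 or DNMT3L siRNA joined DNMT3A siRNA, by -0.27 ± 0.07 in siD1+3A (adjusted p = 0.0254) and -0.23 ± 0.07 in 3A+3L (adjusted p = 0.0487) against siDNMT3A. Neither call held when any of the 4 arrays compared was left out. It was lower in siDNMT3B than in siDNMT1 (-0.26, not called without replicate 1 of siDNMT3B at -0.19 or either siDNMT1 array at -0.28 and -0.23), and higher in siDNMT3L than in siDNMT3B (0.29, not called without replicate 1 of siDNMT3B at 0.22 or replicate 2 of siDNMT3L at 0.26). ZMAT3 was lower in siDNMT3B than in siDNMT1 (-0.31 ± 0.05, adjusted p = 0.000134) and in 3A+3B+3L than in 3B+3L (-0.29 ± 0.05, adjusted p = 0.000205), and both calls held. Its values of -0.15 for siDNMT3L against siDNMT1 and 0.16 for siDNMT3L against siDNMT3B lost their calls without either siDNMT3L array (-0.15 and -0.14, and 0.16 and 0.17), the first also without either siDNMT1 array (-0.15 and -0.14) and the second without replicate 1 of siDNMT3B (0.12). With arrays weighted by quality, 3 of the 4 TP53INP1 calls of this paragraph were lost, in 3A+3L against siDNMT3A (adjusted p = 0.0781), siDNMT3B against siDNMT1 (adjusted p = 0.0779) and siDNMT3L against siDNMT3B (adjusted p = 0.0627), as were both siDNMT3L calls of ZMAT3 (adjusted p = 0.108 and 0.0673) and of GDF15 (adjusted p = 0.104 and 0.0520).

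MDM2 was higher in siDNMT3B than in siDNMT1 (0.30 ± 0.05, adjusted p = 0.00104), which held. It was lower in siD1+3A+3B than in 3A+3B (-0.26 ± 0.05, adjusted p = 0.0144), a call lost without replicate 2 of siD1+3A+3B (-0.21) or either 3A+3B array (-0.22 and -0.29). CDKN1A was lower in 3A+3B+3L than in 3B+3L (-0.42 ± 0.11, adjusted p = 0.0109), a call lost without replicate 2 of 3B+3L (-0.40) or replicate 1 of 3A+3B+3L (-0.39). BBC3 had its only call of any comparison here, 0.34 ± 0.10 higher in siDNMT3B than in siDNMT1 (adjusted p = 0.0191), lost without replicate 2 of siDNMT1 (0.29) or of siDNMT3B (0.31), and with array weights (adjusted p = 0.0513). FAS, RRM2B and GADD45A were not called by limma in any of the 12, and had 1, 4 and 0 tests with an unadjusted p under 0.05. RRM2B was called lower in siDNMT3B than in siDNMT1 without replicate 2 of siDNMT3B (-0.36), and CDKN1A lower in siDNMT3L than in siDNMT1 without replicate 1 of siDNMT1 (-0.51).

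**Figure D3:**
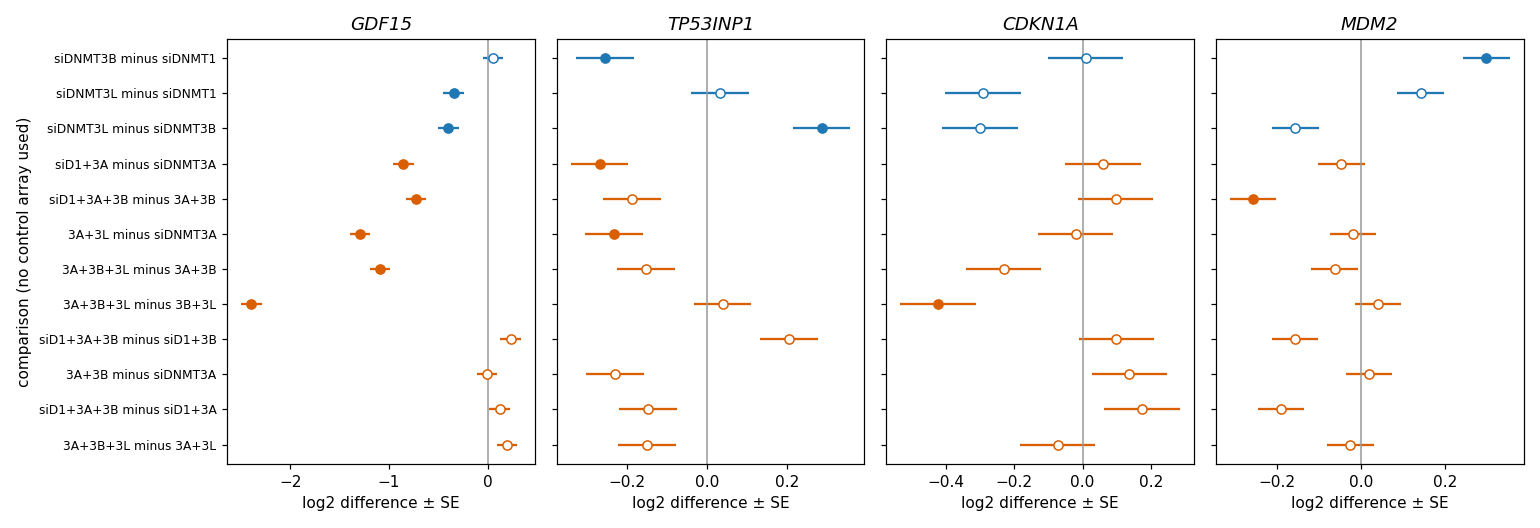
Log2 difference with its standard error (horizontal axis) of GDF15, TP53INP1, CDKN1A and MDM2 in the 12 comparisons between depletions that use no control array (vertical axis). Filled points passed an adjusted p of 0.05 and open points did not, and blue marks the siNTC-1 set and orange the siNTC-2 set. GDF15 lies furthest below 0, at -2.39, in 3A+3B+3L against 3B+3L, groups that also differ in the DNMT3B transcript.

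Whether an siRNA had another effect beside other partners was tested by 3 interactions within the siNTC-2 set, chosen after the values were seen. The effect of DNMT3A siRNA added to 3B+3L differed from its effect added to siD1+3B in 3 of the 9 genes, CDKN1A, GDF15 and ZMAT3, where 14.8% of all genes were called. GDF15 differed by -2.39 with DNMT3A siRNA beside 3B+3L and by 0.23 beside siD1+3B. The DNMT3B transcript was also 0.45 higher and DNMT1 0.19 higher in 3A+3B+3L than in 3B+3L. DNMT1 was 0.26 higher in siD1+3A+3B than in siD1+3B, so each pair of groups differs in more than DNMT3A siRNA. The effect of DNMT1 siRNA beside 3A+3B and beside siDNMT3A was not called different in any member by limma (0.0760% of all genes), nor was that of DNMT3L siRNA (0.0326%), with 3 tests of members at an unadjusted p under 0.05.

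Because GDF15 answers to more than p53, the 20 genes of an integrated stress response list, all measured and none of them among the p53 response genes followed here, are given beside it. Between the controls, 18 of the 20 were higher in siNTC-2 and 0 were lower, where 44.7% of all genes were called. The median of the list was 1.42, beside the medians within 0.03 of 0 that all genes showed. CHAC1, which degrades glutathione, differed by 3.53 and DDIT3, which encodes CHOP, by 1.63, whereas ATF4, regulated mostly in translation, differed by 0.10 (adjusted p = 0.0942). The mean log2 value of the list was 9.50 in siNTC-2, 9.48 in 3B+3L, 9.21 in 3A+3B and 9.13 in siDNMT3A, the 4 groups with high GDF15. It was 8.75 in siD1+3A+3B, 8.36 in siD1+3A, 8.23 in 3A+3L, 8.19 in siD1+3B and 8.10 in 3A+3B+3L, and from 7.57 to 7.92 in the siNTC-1 set.

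In the 5 comparisons within the siNTC-2 set in which GDF15 fell, the list fell as well. Against siDNMT3A, 18 of 20 were lower for siD1+3A (9.62% of all genes called) and for 3A+3L (10.1%). Against 3A+3B, 14 were lower for siD1+3A+3B (3.19%) and 18 for 3A+3B+3L (9.42%). For 3A+3B+3L against 3B+3L 18 were lower (18.9%, list median -1.32), and DDIT3 fell by 1.59. The pair differed elsewhere. In siD1+3A+3B against siD1+3B 13 of the 20 rose (3.02% of all genes called) while GDF15 differed by 0.23 and was not called. In siDNMT3L against siDNMT1 8 rose (12.6%) while GDF15 was called lower, at -0.35. That GDF15 call was lost without replicate 2 of siDNMT1 or either siDNMT3L array, and with array weights. The part of this list in the GDF15 values was not tested. CDKN1A had its highest means in siNTC-2 at 6.38 and 3B+3L at 6.27, as the list did, and was lower by -0.42 in 3A+3B+3L than in 3B+3L. In siDNMT3A and 3A+3B, where the list was also high, it ranked only 9 and 6 of the 13 groups, at 5.94 and 6.07. It ranked 3 in siDNMT3B, with a list mean of 7.73, and 4 in siDNMT1, where the list was lowest. Its siDNMT1 arrays read 5.96 and 6.40. TP53INP1 read 6.65 and 6.61 in siNTC-2, where the list was highest. The part of the list in these values was not tested either.

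**Figure D4:**
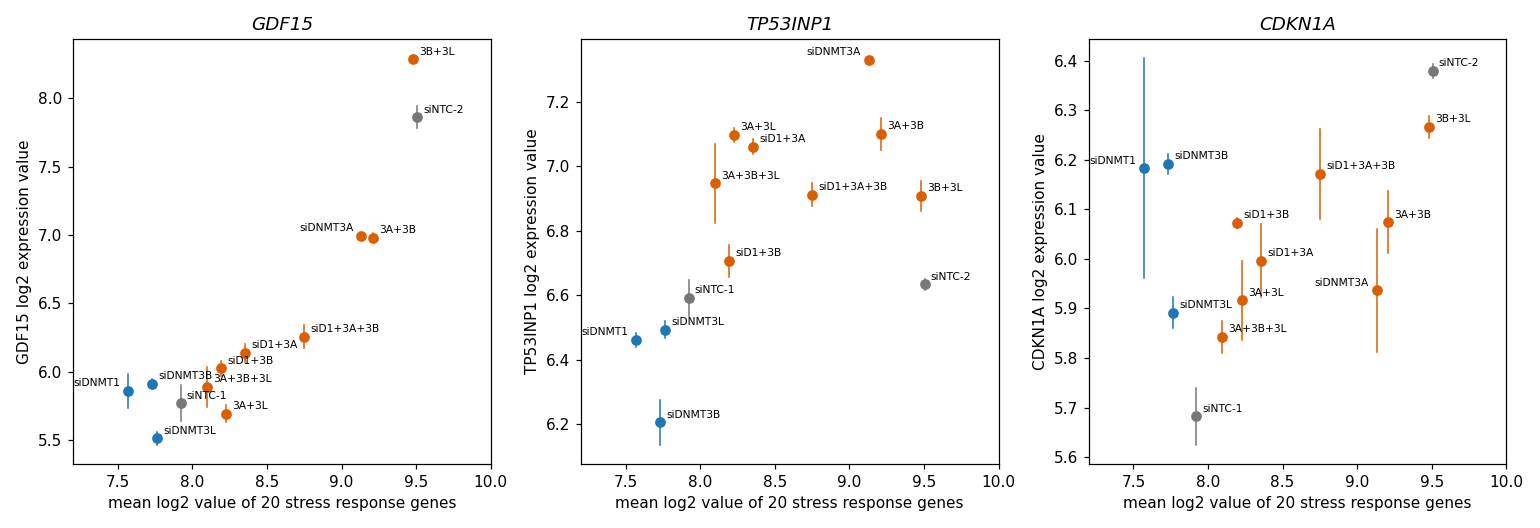
Log2 expression value of GDF15, TP53INP1 and CDKN1A (vertical axes) against the mean log2 value of 20 integrated stress response genes (horizontal axis), 1 dot for the mean of each group and a line from its lower to its higher array, with grey for controls, blue for depletions of the siNTC-1 set and orange for those of the siNTC-2 set. The 4 groups with GDF15 means near 7 or above lie at list means of 9.13 to 9.50, while TP53INP1 is highest in siDNMT3A.

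Other known p53 targets were followed in a list of 26, of which 25 were measured. Of these, 7 were higher and 6 lower in siNTC-2 than in siNTC-1, where 44.7% of all genes were called. Against the nearer control the counts higher and lower, with the share of all genes called, were 2 and 3 in siDNMT1 (19.8%), 4 and 3 in siDNMT3B (24.2%) and 2 and 4 in siDNMT3L (19.2%). The counts were 2 and 3 in siDNMT3A (15.8%), 4 and 6 in siD1+3A+3B (18.6%), 3 and 5 in siD1+3A (22.8%) and 4 and 4 in siD1+3B (25.0%). For the rest they were 1 and 2 in 3A+3B (12.6%), 3 and 5 in 3A+3L (22.4%), 1 and 0 in 3B+3L (10.1%), and 2 and 5 in 3A+3B+3L (23.3%). The median differences of these targets lay between -0.04 and 0.05, near the medians of all genes. Against both controls the highest count of higher targets was 9, in siDNMT3A (29.5% of all genes called), beside 5 lower. The highest count of lower ones was 7, in 3A+3B+3L (25.1%), beside 3 higher. Between depletions, 7 targets were lower and 1 higher in 3A+3B+3L than in 3B+3L, where 18.9% of all genes were called. SESN2, which answers to nutrient stress, fell by 1.95, PMAIP1, which encodes the death protein NOXA, by 0.83, and BAX, another death protein, rose by 0.30. Against 3A+3B the counts in 3A+3B+3L were 4 lower and 0 higher, where 9.42% of all genes were called.

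SESN2, a sestrin that restrains mTORC1 and is induced by ATF4 as well as p53, was 1.99 higher in siNTC-2 than in siNTC-1 and was lower than the nearer control in 9 depletions, down to -2.10 in siD1+3B. PMAIP1, which encodes the BH3-only protein NOXA, was 1.18 higher in siNTC-2 and was lower in 6 depletions and higher in 2. SESN1, a sestrin that p53 and FOXO factors induce, differed by 0.01 between controls and was higher than siNTC-2 in 7 of the 8 depletions of that set, by 0.26 to 0.33. BAX, the pore-forming apoptosis protein, was lower than siNTC-1 in all 3 depletions of its set and called in none of the other 8, and was lower in siNTC-2 than in siNTC-1 (-0.29). PPM1D, the phosphatase that shuts the p53 response down, was called once against the nearer control, at -0.18 in siD1+3A+3B. Single arrays were not left out for genes of the lists.

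Of 12 listed p53 regulators 10 were measured, and 5 were higher and 2 lower in siNTC-2 than in siNTC-1, where 44.7% of all genes were called. MDM4, the partner of MDM2, was 0.65 ± 0.05 higher there and was below siNTC-2 in the 5 depletions siD1+3A, siD1+3B, siD1+3A+3B, 3A+3L and 3A+3B+3L, by -0.29 to -0.47. The checkpoint kinases ATR and CHEK2 were 0.54 and 0.41 higher in siNTC-2. A list of 13 cell cycle genes that p53 represses through p21 and the DREAM complex was measured in full. Of these, 2 were higher and 6 lower in siNTC-2, beside the same 44.7% of all genes. CDK1, the mitotic kinase, was at -0.82 and CCNA2, cyclin A, at -0.33 there. Against the nearer control 7 of the 13 were lower and 1 higher in siDNMT1 (19.8% of all genes called), with MYBL2 at -0.49, CCNA2 at -0.38 and CDK1 at -0.40. CDKN1A was at 0.50 there, a call lost without replicate 2 of siDNMT1 (0.28) and not made against both controls. In siDNMT3B (24.2%), where CDKN1A was higher by 0.51, 3 of the 13 were higher and 1 lower. In siD1+3A (22.8%) and 3A+3L (22.4%) 6 of the 13 were higher and 0 and 1 lower, with CDK1 at 0.45 and 0.51.

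The genes whose 13 group means correlated best with those of a member are named as a description, since the points share the 2 sets of arrays. For GDF15 they were BEST1 (r = 0.98) and ATF6 (r = 0.97), for TP53INP1 GLMP (0.97) and TBC1D10B (0.96), and for RRM2B SFR1 (0.99) and NCCRP1 (0.98). For CDKN1A they were CDK19 (0.93) and H4C16 (0.90), for MDM2 ZNF367 (0.83) and NUMB (0.82), for ZMAT3 PIK3CB (0.86) and ZFAND6 (0.84), for FAS ZDHHC18 (0.93) and HLA-DRB5 (0.89), for BBC3 CFB and LILRA1 (both 0.95), and for GADD45A ALG3 (0.94) and CRIP3 (0.93). No other of the 9 measured genes was among these.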

How the data were processed

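Total RNA of 26 NCCIT samples was measured on arrays, from 250 ng of RNA each, per the labels' protocols. The authors deposited 1 table of log2 expression values, with 33297 rows and 26 columns. Partek is named, per the submitters' processing notes, without role or version, and how background was corrected, probes summarised and arrays normalized was not given in the sources used here. A log base of 2 was inferred from the range of the deposited log2 values, 3.04 to 14.87. Values look scaled between arrays, so a change in total RNA would not show.

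In the platform annotation 19460 rows had 1 symbol, 1754 had several and 12083 had none, and 19429 of the 19460 matched RefSeq by gene number. Rows with several symbols were not used. The brightest row stood for each gene, which left 18417 genes, of which 769 had several rows. Groups came from the sample titles. With limma 3.58.1 in R 4.3.3 (lmFit, then eBayes), 1 model of 13 group means took in the 26 arrays, with 13 residual degrees of freedom. Its two-sided p-values were adjusted over the 18417 genes by the Benjamini-Hochberg method for each comparison, with 0.05 as threshold. Tests covered 11 depletions against both controls, 11 against the nearer control, 12 between depletions, siNTC-2 against siNTC-1, and 3 interactions added after values were seen. The script was tested on simulated data. Precision is limited by 2 arrays a group. The replicate numbers did not pair the samples: same-numbered samples of 78 group pairs correlated at -0.26 to 0.19, and 9 pairs exceeded 0.1.

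The members and all gene lists were chosen with earlier results of these data known. All members are named. Of the other lists the genes with the smallest adjusted p and SESN2, PPM1D, BAX, MDM4, DDIT3, CHAC1 and ATF4 are named, and SESN1 was chosen after its values were seen. Most-like genes are the 2 with the highest Pearson correlation of group means. RefSeq promoters (GRCh38.p14) were looked up by symbol and kept for 7 of 10 members. The chromosome that holds TP53INP1 and RRM2B was left out of this search, and GADD45A had no entry.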

Additional observations from a re-analysis of the deposited data

Results flagged for a closer look

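In 3 of the 9 measured genes the effect of DNMT3A siRNA differed with the siRNAs it was added to. The test was an interaction term of the limma model over 13 group means, which called 14.8% of all genes. In GDF15 the effect beside 3B+3L minus that beside siD1+3B was -2.62 ± 0.15 (SE, adjusted p = 9.3e-10), from -2.39 and 0.23, and the call held with any 1 array left out. In ZMAT3 it was -0.34 ± 0.06 (adjusted p = 0.00148), from -0.29 and 0.05, and held likewise. In CDKN1A it was -0.52 ± 0.16 (adjusted p = 0.0309), from -0.42 and 0.10, and was not called when any 1 of 7 of the 8 arrays was left out, at -0.43 to -0.55, the exception being replicate 1 of siD1+3A+3B. The DNMT3B transcript was 0.45 higher in 3A+3B+3L than in 3B+3L (adjusted p = 4.3e-05), and DNMT1 was 0.19 higher (adjusted p = 0.0208). In siD1+3A+3B, DNMT1 was 0.26 higher than in siD1+3B (adjusted p = 0.0155). Each pair of groups thus differs in the level of other DNMT transcripts as well as in DNMT3A siRNA. All 4 groups are in the siNTC-2 set, the interactions were chosen after the values were seen, and the cause of the differences was not tested.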

How the results depend on the processing

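The choice of control moved these results most. With siNTC-1 alone, GDF15 was at 0.0906 in siDNMT1, 0.14 in siDNMT3B, 0.37 in siD1+3A, 0.26 in siD1+3B, 0.49 in siD1+3A+3B and 0.12 in 3A+3B+3L, and CDKN1A at 0.31 in siD1+3A, each with the sign turned. With siNTC-2 alone the sign turned for GDF15 in siDNMT3A (-0.87) and 3A+3B (-0.88) and for RRM2B in siDNMT3A (-0.0215), siD1+3A+3B (-0.0845), siD1+3B (-0.0402) and siD1+3A (-0.0618). The count of members called became 2 in siDNMT1, 4 in siDNMT3A and 0 in siDNMT3L with siNTC-1 alone (limma, 1 member at an unadjusted p under 0.05 in the last), and 5 in siDNMT3A, 7 in siDNMT3L, 5 in 3A+3B and 4 in 3A+3B+3L with siNTC-2 alone. Fitting only the groups compared, which leaves fewer degrees of freedom, gave 1 in siDNMT3A, 1 in siDNMT3L, 1 in siD1+3B, 3 in siD1+3A+3B, 26 against the nearer control and 7 between depletions. A trended and robust prior gave 4 in 3A+3B+3L, and the cause was not tested. With 1 array left out the counts were 4 to 6 in siDNMT1, 1 to 3 in siDNMT3A, 3 to 5 in siDNMT3B, 1 to 5 in siDNMT3L, 2 to 3 in siD1+3A, 1 to 3 in siD1+3B, 3 to 5 in siD1+3A+3B, 2 to 3 in 3A+3B, 3 to 4 in 3A+3L, 4 to 5 in 3B+3L, 2 to 3 in 3A+3B+3L, 6 to 8 between the controls, 31 to 44 against the nearer control and 13 to 19 between depletions. The counts moved by over 1.5 times without replicate 1 of siDNMT3A (1), replicate 1 of siDNMT3L (1), replicate 1 of siNTC-1 (5 in siDNMT3L), replicate 2 of siD1+3B (1) and either siD1+3A+3B array (3). With the replicate number as a block, in a design whose numbers did not pair the samples, 40 tests against the nearer control were called as before, with MDM2 in 3A+3B lost (adjusted p = 0.0523) and CDKN1A in siD1+3B gained (adjusted p = 0.0479), and no other call changed. Array weights, quantile normalization, leaving out the dimmest 40% of genes (which drops FAS) and all rows with 1 symbol reversed no member and moved no count past 1.5 times, but some single calls changed. With array weights, 14 calls between depletions were left of 19: 8 were lost, 7 of them in comparisons among siDNMT1, siDNMT3B and siDNMT3L and the other TP53INP1 in 3A+3L against siDNMT3A, and 3 were gained. Against the nearer control 1 was lost (MDM2 in siDNMT3B, adjusted p = 0.0916) and 4 gained, and against both controls 1 was gained. Quantile normalization lost 3 calls against both controls (FAS in 3A+3B and 3A+3L, MDM2 in 3B+3L) and TP53INP1 in 3A+3L against siDNMT3A. The trended and robust prior lost that call too, and 4 calls of FAS. Leaving out the dimmest genes lost no call of the members it kept. Dim signal limits FAS.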
